A study of Mus musculus with 6 samples.

Results

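Genes that sense foreign nucleic acid, carry the interferon signal and respond to it were followed in AB22 cells, a mouse malignant mesothelioma line, with and without silencing of Hmgb1. The set was chosen by gene symbol and role, with earlier results of these data known. It names 54 genes, of which 40 have a row in the table of 12134 genes analysed here. Of these, 39 reached the mean of 0.5 RPKM (reads scaled by gene length and library size) required for testing. By role the 54 are 7 receptors and kinases, 7 transcription factors, 11 nucleic acid sensors with their partners, and 29 induced effectors. The 14 members without a row, which were not analysed here, are Irf7, Dhx58, Oas1a, Oas2, Oas3, Ifit1, Ifit3b, Oasl1, Oasl2, Mx1, Mx2, Rsad2, Usp18 and Ifi44.

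Both groups were AB22 cells infected at a multiplicity of infection of 20 with the lentiviral vector pTRIPZ, in which doxycycline turns on a short hairpin RNA, and selected with puromycin at 4 µg/mL. One hairpin was a control (shCTRL) and the other was directed at Hmgb1 (shHMGB1). Both groups were kept at 5% oxygen with doxycycline at 1 µM, were used 7 to 10 days after it was added, and gave total RNA from unirradiated cells synchronised in G1. Each group has 3 libraries, A, B and C, which the series calls biological replicates. Where 3 values of a group are listed, they stand in the order A, B, C. No source used here says whether the cultures were separate infections, so p-values set a difference only against the spread between these cultures.

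Interferons are secreted cytokines that bind paired receptors on the cell surface. Type I interferons bind IFNAR1 and IFNAR2, and interferon-gamma binds IFNGR1 and IFNGR2. The receptors work through the Janus kinases JAK1, JAK2 and TYK2, which phosphorylate STAT proteins. With IRF9, STAT2 forms part of a complex that binds interferon-stimulated response elements before the induced genes. Upstream, cGAS and STING detect cytosolic DNA, RIG-I and MDA5 detect double-stranded RNA, and IRF3 then turns on interferon genes. HMGB1, the target of the hairpin, is an abundant nuclear DNA-binding protein that can also act outside the cell as an alarm signal.

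Hmgb1 served as the check of the hairpin. It measured 33.4, 45.5 and 31.9 RPKM in shCTRL and 7.18, 5.79 and 3.80 RPKM in shHMGB1, so 15.1% of the control mean was left (adjusted p = 0.0269 in limma). Without shCTRL library A, B or C, or shHMGB1 library B, limma's adjusted p was 0.116 to 0.247. Libraries held 10670349 to 23252094 reads over those genes whose reads could be recovered. Of 13 mesothelial markers, 5 had a row, namely Bnc1, Efemp1, Krt7, Pdpn and mesothelin (Msln). Wt1, Upk3b, Calb2, Lrrn4, Muc16 and the keratin genes Krt8, Krt18 and Krt19 had none. The summed level of the 5 was 553 to 621 RPKM in shCTRL and 421 to 554 RPKM in shHMGB1. Most of that sum was Efemp1, at 439 to 519 RPKM in shCTRL and 357 to 472 RPKM in shHMGB1. Msln was at 49.0% of its control mean. Of 12 leukocyte markers, only Lyz2 had a row, at 1.97 to 2.71 RPKM over the 6 libraries, and of 5 endothelial markers only Kdr had one. Ribosomal RNA differed widely between libraries. Rn18s-rs5, an 18S ribosomal RNA sequence, measured 22963, 62830.0 and 2177 RPKM in shCTRL and 9004, 2567 and 623 RPKM in shHMGB1. The highest level was in shCTRL replicate B and the lowest in shHMGB1 replicate C, with overlap between the groups.

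Among the interferon genes, the DNA sensor adaptor Tmem173, the nucleic acid sensor Zbp1 and the effectors Xaf1, Rtp4, Ifit3 and Cmpk2 were lower in every shHMGB1 library than in any shCTRL library, whereas Isg15 was higher in every one. None of these differences passed the adjusted threshold. In limma's fit over all 11669 tested genes, 0 of 39 tested members had an adjusted p under 0.05, where 0.0257% of all genes did. With limma's voom on recovered reads 0 members likewise passed. There, 8 had an unadjusted p under 0.05, where 7.95% of all genes in that fit did. In limma's main comparison, at an unadjusted p under 0.05, 8 of the 39 members were picked out (20.5%), where 7.91% of all tested genes were. Of the members picked out, 7 were lower in shHMGB1, where 4.13% of all tested genes were lower at that p, and Isg15 was higher, where 3.78% were. The count of 8 was 3 when replicate B of either group was left out, 5 without shCTRL replicate C and 13 without shHMGB1 replicate A, where the shares over all genes were 3.91% (shCTRL), 3.65% (shHMGB1), 6.04% and 20.9%. After libraries were rescaled to the same sum, whereby the median over all genes became 0.36 in place of 0.01, the members with an unadjusted p under 0.05 were Zbp1, lower, and Isg15, Mb21d1 and Bst2, higher. Tmem173, Zbp1 and Xaf1 were in the count in each of the 6 fits that left out a library.

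The groups did not overlap for 12 of the 39 tested members (30.8%), and for 14.0% of all tested genes. Of the 12, 10 were lower in shHMGB1, where 7.07% of all genes were, and 2 were higher, where 6.90% were. Without shHMGB1 replicate A the count was 23 (59.0%), where 41.9% of all tested genes did not overlap in that smaller comparison. An exact permutation test of 1 gene has a smallest p of 0.1 at this group size, so these counts are descriptions. The members were also chosen with earlier results of these data known, which limits what these counts and those at an unadjusted p can show. Zbp1 and Rtp4 reached the minimum level for testing only through the shCTRL libraries, so a difference in that direction was built into their being tested. In RNA from a whole culture, fewer cells making a transcript and less transcript per cell cannot be told apart.

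**Figure D1:**
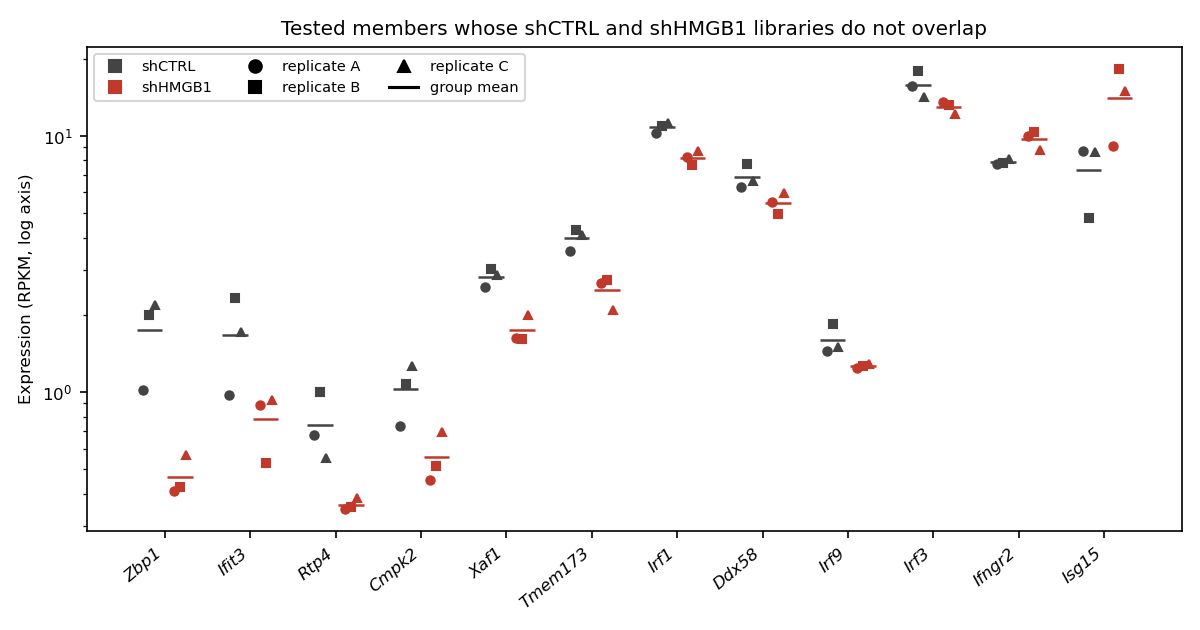
RPKM on a log axis in each of the 6 libraries for the 12 tested members whose groups do not overlap, in grey for shCTRL and red for shHMGB1, with a marker shape for each replicate letter and a bar for the group mean. Zbp1 stands apart at the left with all shHMGB1 libraries at 0.409 to 0.565 RPKM against 1.02 to 2.19 RPKM, and Isg15 at the right runs the other way.

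**Figure D2:**
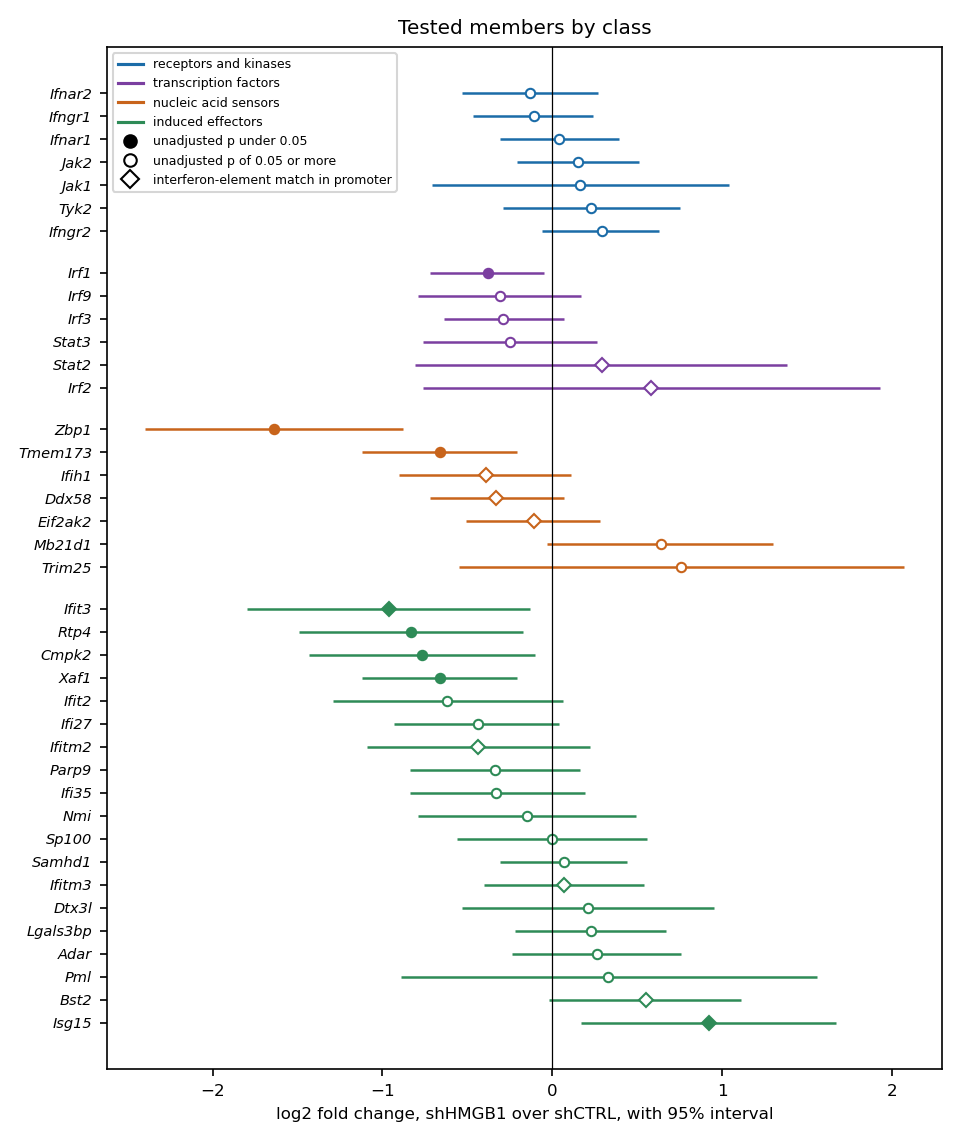
Log2 fold change of shHMGB1 over shCTRL with limma's 95% interval for the 39 tested members, by class. Filled markers have an unadjusted p under 0.05, and diamonds mark members whose listed promoter holds the core letters of the interferon-stimulated response element. The receptors and kinases lie between -0.13 and 0.29, while the sensors spread from -1.64 to 0.76.

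The receptors and kinases had fold changes near 1, from -0.13 to 0.29 on the log2 scale. All 7 had a row and were tested, with a median log2 fold change of 0.15, beside 0.01 over all tested genes, and 0 had an unadjusted p under 0.05. Ifnar1, the signalling chain of the type I receptor, measured 12.2, 11.2 and 13.9 RPKM in shCTRL and 12.0, 12.5 and 13.6 RPKM in shHMGB1. The shHMGB1 values lie inside the shCTRL range, and the 95% interval of the log2 fold change was -0.31 to 0.39. Ifngr2, the signalling chain of the interferon-gamma receptor, measured 7.74, 7.83 and 8.12 RPKM in shCTRL and 10.0, 10.3 and 8.75 RPKM in shHMGB1. It was the only receptor whose groups did not overlap, at 123% of the control mean (log2 fold change 0.29 ± 0.15 SE, adjusted p = 0.687 in limma).

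Jak1 was the most abundant of the class and the least even between libraries. It measured 111, 107 and 170.3 RPKM in shCTRL and 86.5, 132 and 247 RPKM in shHMGB1, so that replicate C was highest in both groups and the 2 extremes both belonged to shHMGB1. Its log2 fold change of 0.16 ± 0.38 (SE) became -0.24 without shHMGB1 replicate C and -0.46 when 18S entered as covariate. Jak2, the kinase bound to IFNGR2, measured 20.0, 24.5 and 19.0 RPKM in shCTRL and 24.7, 22.7 and 22.5 RPKM in shHMGB1. The groups overlap, with a 95% interval of -0.21 to 0.51. The other 3, Ifnar2, Ifngr1 and the kinase gene Tyk2, had log2 fold changes from -0.13 to 0.23 and adjusted p-values of at least 0.777.

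Of the 6 transcription factors with a row, 4 were lower and 2 higher, with a median of -0.27. Irf1, an activator of many interferon-gamma targets, measured 10.2, 10.9 and 11.2 RPKM in shCTRL and 8.24, 7.66 and 8.74 RPKM in shHMGB1. Every shHMGB1 library was lower than every shCTRL library, and replicates lay close together. The group means were 10.7 ± 0.545 and 8.21 ± 0.536 RPKM (SD, n = 3 each), and on the log2 scale they differed by -0.38 ± 0.15 (SE; adjusted p = 0.581 in limma). Irf3, which the sensors activate, measured 15.6, 17.8 and 14.1 RPKM in shCTRL and 13.5, 13.2 and 12.1 RPKM in shHMGB1, and Irf9 measured 1.44, 1.84 and 1.49 RPKM and 1.24, 1.26 and 1.28 RPKM. Neither gene's groups overlapped, although both shifts were small (log2 fold changes -0.29 and -0.31), and the annotated exons of all 3 share bases with another gene, Irf1 135 with Gm17334, Irf3 88 with Bcl2l12 and Irf9 123 with Rnf31. Stat3, which carries signals of interleukin-6 and also of interferons, was the most abundant, with means of 25.9 ± 5.33 RPKM in shCTRL and 21.9 ± 5.11 RPKM in shHMGB1 (SD, n = 3 each). Its groups overlapped, and its log2 fold change was -0.25, -0.09 without shCTRL replicate C, -0.43 without shHMGB1 replicate C, and -0.56 when 18S entered as covariate (limma's unadjusted p = 0.0116).

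Stat2 and Irf2, a repressor of interferon-responsive genes, are described after their values were seen, being uneven within both groups. Stat2 measured 2.79, 1.24 and 3.75 RPKM in shCTRL and 1.61, 3.69 and 4.10 RPKM in shHMGB1, and Irf2 measured 1.41, 0.558 and 1.18 RPKM and 0.580, 1.82 and 3.18 RPKM. In each, shCTRL replicate B and shHMGB1 replicate A were the lowest in their group and shHMGB1 replicate C the highest of all. Their log2 fold changes of 0.29 and 0.58 have 95% intervals of -0.81 to 1.38 and -0.76 to 1.93, wide enough to hold a change of either sign.

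The sensors held the largest difference among the members. Zbp1 encodes a protein that binds left-handed nucleic acid and can start necroptosis, and it is itself induced by interferon. Its locus is on the minus strand of chromosome 2, between bases 173206612 and 173218923 (GENCODE M21, GRCm38). It measured 1.02, 2.00 and 2.19 RPKM in shCTRL and 0.409, 0.425 and 0.565 RPKM in shHMGB1, from 30, 47 and 121 reads and 17, 20 and 18 reads. The highest shHMGB1 library lay below the lowest shCTRL library, and 26.8% of the control mean was left. On the log2 scale the difference was -1.64 ± 0.33 (SE; 95% interval -2.40 to -0.88; unadjusted p = 0.00112 and adjusted p = 0.262 in limma). It was -1.45 to -1.97 when a library was left out, and -0.87 with a pseudocount of 1 RPKM, which weighs on so low a gene.

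The DNA-sensing pair had means that differed in opposite directions. Tmem173, which encodes STING, the membrane adaptor that relays the signal of cGAS, measured 3.56, 4.28 and 4.10 RPKM in shCTRL and 2.65, 2.74 and 2.08 RPKM in shHMGB1. All 3 shHMGB1 libraries were below all 3 shCTRL libraries, at 62.5% of the control mean. The log2 fold change was -0.66 ± 0.20 (SE; unadjusted p = 0.0104, adjusted p = 0.478 in limma), and -0.58 when 18S entered as covariate. Mb21d1, which encodes cGAS itself and is described here after its values were seen, measured 1.34, 0.837 and 1.01 RPKM in shCTRL and 1.26, 2.26 and 1.66 RPKM in shHMGB1. The groups overlapped, since shHMGB1 replicate A lay below shCTRL replicate A, and the log2 fold change of 0.64 has a 95% interval of -0.03 to 1.30. That the genes differ from each other in response was not tested.

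The RNA-binding sensors Ddx58, Ifih1 and Eif2ak2 had lower means in shHMGB1. Ddx58, which encodes RIG-I, measured 6.28, 7.77 and 6.65 RPKM in shCTRL and 5.49, 4.96 and 5.98 RPKM in shHMGB1. Its groups did not overlap, at 79.4% of the control mean (log2 fold change -0.33 ± 0.17 SE, adjusted p = 0.687 in limma). Ifih1, which encodes MDA5 and is given after its values were seen, had a log2 fold change of -0.39 with overlapping groups. Eif2ak2, the double-stranded RNA-activated kinase PKR, had -0.11 with a 95% interval of -0.51 to 0.28. Trim25, a ubiquitin ligase that activates RIG-I, measured 4.59, 1.78 and 4.86 RPKM in shCTRL and 2.63, 6.66 and 11.3 RPKM in shHMGB1. It shares with Stat2 and Irf2 the low values in shCTRL replicate B and shHMGB1 replicate A, and its log2 fold change of 0.76 ± 0.57 (SE) became 0.30 when shCTRL library B was left out, 0.29 when shHMGB1 library C was and 1.32 when shHMGB1 library A was. When 18S entered as covariate it was -0.15. The median over the 7 tested sensors was -0.33.

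Of the 29 induced effectors, 20 had a row and 19 were tested, 10 of them lower and 9 higher with a median of -0.15. That median was -0.40 without shCTRL replicate C and 0.01 without shCTRL replicate A. Parp14, a mono-ADP-ribosyltransferase gene, was left out by the minimum level, with 23 to 76 reads per library. The effectors that had an unadjusted p under 0.05 split by direction, 4 lower and Isg15 higher. Xaf1, a pro-apoptotic antagonist of the XIAP protein, measured 2.56, 3.02 and 2.85 RPKM in shCTRL and 1.62, 1.61 and 2.00 RPKM in shHMGB1, with replicates that lay close together and groups well apart. It was at 62.0% of the control mean (log2 fold change -0.66 ± 0.20 SE; unadjusted p = 0.0103, adjusted p = 0.478 in limma).

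Ifit3, Cmpk2 and Rtp4 were scarce in all libraries. Ifit3, which binds other IFIT proteins that restrain viral RNA, had 23, 44 and 76 reads in shCTRL and 30, 20 and 24 reads in shHMGB1, or 0.970, 2.33 and 1.71 RPKM and 0.888, 0.527 and 0.931 RPKM. Only a narrow gap separates shCTRL replicate A from the shHMGB1 libraries. Its log2 fold change was -0.96 ± 0.36 (SE, adjusted p = 0.576 in limma), and the near-identical Ifit3b could share its reads. Cmpk2, a mitochondrial nucleotide kinase gene, measured 0.735, 1.07 and 1.26 RPKM and 0.453, 0.514 and 0.697 RPKM, again with the closest values from shCTRL replicate A. Rtp4, a chaperone of receptors on their way to the membrane, had 18, 21 and 27 reads in shCTRL and 13, 15 and 11 reads in shHMGB1. That is 0.681, 0.998 and 0.549 RPKM and 0.348, 0.355 and 0.386 RPKM, and 296 of its exon bases are also annotated to Gm45338. The log2 fold changes of Cmpk2 and Rtp4 were -0.77 ± 0.29 and -0.83 ± 0.28 (SE).

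Isg15 encodes a ubiquitin-like protein that is attached to other proteins and also secreted. It measured 8.71, 4.76 and 8.61 RPKM in shCTRL and 9.09, 18.2 and 14.9 RPKM in shHMGB1. Every shHMGB1 library was above every shCTRL library, but shHMGB1 replicate A was barely so. The means were 7.36 ± 2.25 and 14.1 ± 4.62 RPKM (SD, n = 3 each), or 0.92 ± 0.32 as log2 fold change (SE; unadjusted p = 0.0225, adjusted p = 0.543 in limma). The library with the most 18S ribosomal RNA, shCTRL replicate B, had the least Isg15. With the 18S level as a covariate the log2 fold change was 0.52 (limma's unadjusted p = 0.133). The same fit gave -1.86 for Zbp1, -0.73 for Xaf1 and -0.43 for Irf1, with unadjusted p-values of 0.00126, 0.0147 and 0.0271. Ifit3 and Rtp4, like Isg15, were no longer under 0.05 there, with -0.93 and -0.63 and limma's unadjusted p-values of 0.0721 and 0.112. Cmpk2 had -1.02 (limma's unadjusted p = 0.0151).

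Genes that act in the attachment of ISG15 differed among themselves, and of these Uba7 and Herc6 are described after their values were seen. Ube2l6, the conjugating enzyme, measured 10.6, 15.6 and 10.7 RPKM in shCTRL and 7.78, 9.49 and 7.93 RPKM in shHMGB1, and Uba7, the activating enzyme, measured 3.77, 4.32 and 4.39 RPKM and 3.14, 2.67 and 3.49 RPKM. Neither gene's groups overlapped, and neither passed (log2 fold changes -0.53 ± 0.20 and -0.42 ± 0.19 SE, adjusted p of 0.582 and 0.648 in limma). Herc6, an ISG15 ligase of the mouse, had overlapping groups and a log2 fold change of -0.13. Trim25, which can also act as an ISG15 ligase, had 0.76 as given above.

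The 3 most abundant effectors had log2 fold changes from -0.44 to 0.07. Ifitm3, which blocks the entry of enveloped viruses, measured 142, 125 and 169 RPKM in shCTRL and 130.0, 189.6 and 141 RPKM in shHMGB1. Its groups overlapped, with shHMGB1 replicate B above the shCTRL range, and its log2 fold change was 0.07. Its neighbour Ifitm2 measured 145, 231 and 136 RPKM and 142, 148 and 87.7 RPKM. Its log2 fold change of -0.44 has a 95% interval of -1.09 to 0.22. It was -0.20 with shCTRL library B left out, -0.19 with shHMGB1 library C left out and -0.04 when 18S entered as covariate, and 40.9% of its exon bases are also annotated to Gm45717. Ifi27, an interferon-induced membrane protein gene, measured 86.8, 98.1 and 87.3 RPKM in shCTRL and 89.4, 59.1 and 55.7 RPKM in shHMGB1. In shHMGB1 replicate A it stayed inside the shCTRL range, and the log2 fold change was -0.44 ± 0.21 (SE).

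The other 11 tested effectors, which are Ifit2, Bst2, Ifi35, Parp9, Dtx3l, Adar, Samhd1, Pml, Sp100, Nmi and Lgals3bp, had overlapping groups, log2 fold changes from -0.62 for Ifit2 to 0.55 for Bst2, and adjusted p-values of at least 0.648. Pml, Dtx3l and Parp9 are singled out after their values were seen. Pml, the core protein of nuclear bodies, measured 7.12, 4.17 and 9.79 RPKM in shCTRL and 3.66, 10.2 and 15.6 RPKM in shHMGB1. Its pattern over the libraries is that of Trim25, Stat2 and Irf2, with shHMGB1 replicate A and shCTRL replicate B lowest and shHMGB1 replicate C highest. Dtx3l and Parp9, partners in a ubiquitin ligase complex, had log2 fold changes of 0.21 and -0.34.

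**Figure D3:**
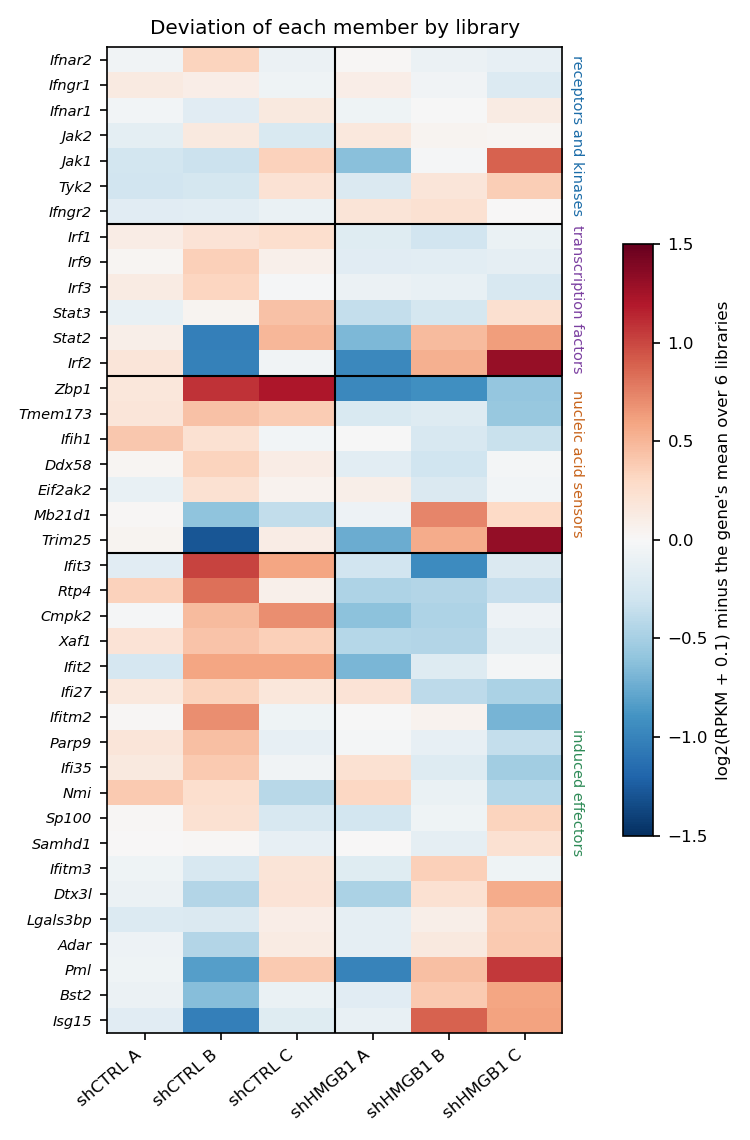
Colour shows log2(RPKM + 0.1) in each library minus the mean of that gene over the 6 libraries, for the 39 tested members by class, with shCTRL at the left. Zbp1, Rtp4, Cmpk2 and Xaf1 separate by group, while Jak1, Stat2, Irf2, Trim25 and Pml are lowest in shCTRL replicate B or shHMGB1 replicate A and highest in shHMGB1 replicate C.

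**Figure D4:**
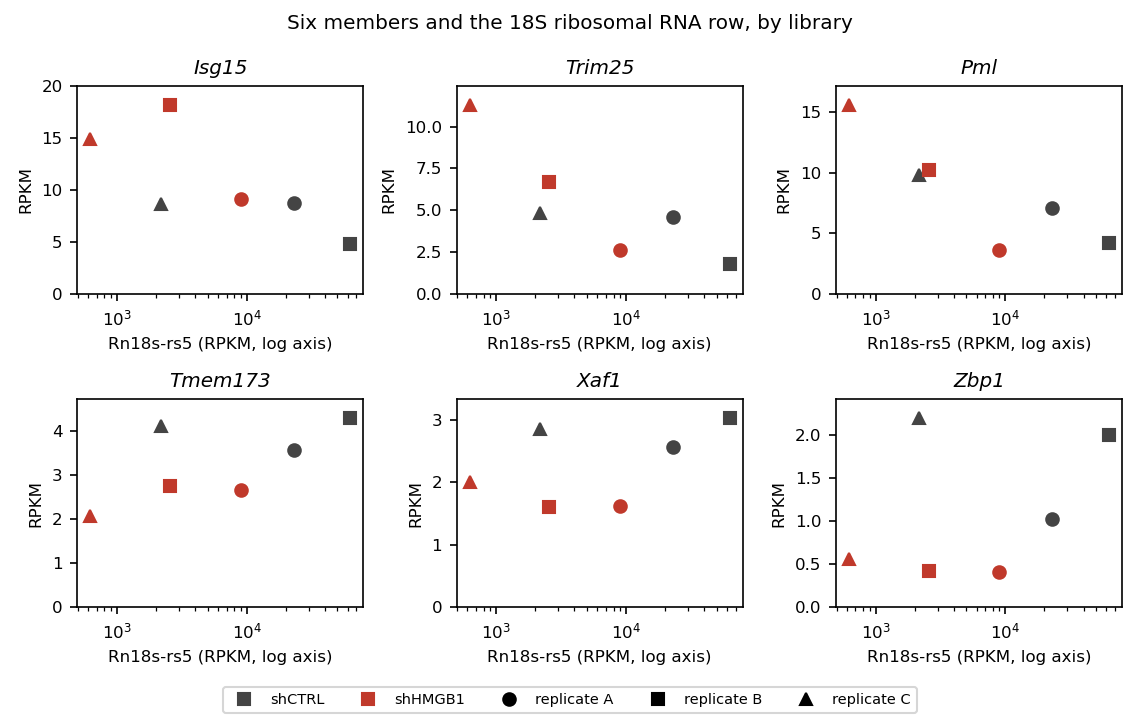
RPKM of 6 members, chosen after their values were seen, against the level of Rn18s-rs5 on a log axis, with a point per library. Isg15, Trim25 and Pml are low where Rn18s-rs5 is highest, in shCTRL replicate B. Trim25 and Pml are also low, at 2.63 and 3.66 RPKM, in shHMGB1 replicate A, where Rn18s-rs5 is 9004 RPKM. They are higher, at 4.59 and 7.12 RPKM, in shCTRL replicate A, where it is 22963 RPKM. Zbp1 in shHMGB1 stays at 0.409 to 0.565 RPKM at Rn18s-rs5 levels from 623 to 9004 RPKM. A relation to Rn18s-rs5 was not tested from these points.

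The part of ribosomal RNA content in the uneven pattern of Trim25, Stat2, Irf2, Pml and Jak1 was not tested beyond the covariate fits of Trim25 and Jak1 given above. For Stat2, Irf2 and Pml no such fit is given. Tmem173, Xaf1 and Zbp1 in shCTRL replicate C, where Rn18s-rs5 was 2177 RPKM, were at 4.10, 2.85 and 2.19 RPKM. In shHMGB1 replicate B, where it was 2567 RPKM, they were at 2.74, 1.61 and 0.425 RPKM. Those are single libraries, and the 3 genes were picked for being lower in shHMGB1. Their groups do not overlap, so any such pair of libraries would show the same direction. Isg15 was at 8.61 RPKM in shCTRL replicate C and 18.2 RPKM in shHMGB1 replicate B. Of the 5 mesothelial markers with a row, Msln and Bnc1 were lower in every shHMGB1 library than in any shCTRL library, with log2 fold changes of -1.02 and -0.69 that did not pass (adjusted p of 0.249 and 0.479 in limma). Pdpn and Efemp1 overlapped, at -0.17 and -0.16, and Krt7 was below the minimum level. The part of these markers in the interferon results was not tested.

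Promoters are shown for the 4 members with the smallest p, among those the naming rule took, whose window holds GAAA, any 2 bases and GAAA again, the core letters of the interferon-stimulated response element, because Isg15 and Ifit3 carry these letters and lie on opposite sides of the comparison. The windows run from 250 bases before to 50 bases after the annotated start in RefSeq on GRCm38.p6, 5′ to 3′ on the strand of the gene, and capitals mark the matches on either strand. They are chr4:156200769-156201068, minus strand, for Isg15, chr19:34583279-34583578, plus strand, for Ifit3, chr4:40239776-40240075, minus strand, for Ddx58, and chr7:140955912-140956211, minus strand, for Ifitm2.
Isg15: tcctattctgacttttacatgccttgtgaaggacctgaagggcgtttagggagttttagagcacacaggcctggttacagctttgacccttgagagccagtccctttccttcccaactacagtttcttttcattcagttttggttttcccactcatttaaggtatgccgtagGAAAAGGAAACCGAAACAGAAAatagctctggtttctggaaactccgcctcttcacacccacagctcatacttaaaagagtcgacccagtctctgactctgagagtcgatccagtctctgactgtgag
Ifit3: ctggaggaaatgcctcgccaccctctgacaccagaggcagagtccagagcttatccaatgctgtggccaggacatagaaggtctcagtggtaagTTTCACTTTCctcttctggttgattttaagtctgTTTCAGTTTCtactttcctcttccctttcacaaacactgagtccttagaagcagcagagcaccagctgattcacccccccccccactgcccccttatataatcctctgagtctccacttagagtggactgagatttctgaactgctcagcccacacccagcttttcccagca
Ddx58: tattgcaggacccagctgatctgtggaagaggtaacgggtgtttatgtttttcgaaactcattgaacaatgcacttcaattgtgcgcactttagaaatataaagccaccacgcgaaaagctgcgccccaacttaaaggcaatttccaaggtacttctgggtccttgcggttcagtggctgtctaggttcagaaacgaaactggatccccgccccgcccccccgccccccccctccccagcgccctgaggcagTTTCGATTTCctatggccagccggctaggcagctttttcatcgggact
Ifitm2: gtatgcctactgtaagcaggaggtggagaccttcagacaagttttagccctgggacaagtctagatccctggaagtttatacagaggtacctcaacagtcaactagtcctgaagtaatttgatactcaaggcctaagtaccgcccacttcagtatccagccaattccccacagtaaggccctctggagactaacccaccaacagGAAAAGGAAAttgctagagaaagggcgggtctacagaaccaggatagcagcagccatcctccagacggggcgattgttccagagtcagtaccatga
In Isg15, 3 matches overlap each other and start at positions -78, -72 and -66 from the start site. Ifit3 has 2 matches on the opposite strand, whose leftmost bases along the gene are at -156 and -122. Ddx58 has its match on the opposite strand at 3 bases into the transcript, and Ifitm2 has its match at -46.

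Of the 54 members, 43 matched a promoter entry, Mb21d1 through its RefSeq symbol Cgas. The core letters were found on either strand in 15 of these 43 genes, in 5 of 7 sensors, 8 of 22 effectors, 2 of 7 transcription factors and 0 of 7 receptors and kinases. Over all 32851 promoter windows of that length, 3.44% held it. Shares over all windows are per window, whereas a member counted if any of its windows matched, so they are not like measures. TTCNNNGAA, the letters of the site that STAT dimers bind after interferon-gamma, reads the same on both strands and was found in 12 of the 43 genes, among them Irf1 at -90, and in 8.30% of all windows. Among tested members, 10 held the core letters, 5 of them higher and 5 lower in shHMGB1 with a median log2 fold change of -0.02. The 24 tested members with a listed promoter but no such match had 13 higher, 11 lower and a median of 0.02, with 2 and 3 members, in that order, at an unadjusted p under 0.05. The 5 without an entry, Tmem173, Zbp1, Ifi27, Rtp4 and Parp9, were all lower with a median of -0.66, and 3 of them had such a p. Zbp1 and Rtp4 are in that count and reached the minimum level only through shCTRL, so their direction was built in. Over all tested genes, 7.91% had such a p, and 4.13% had it and were lower. A match is a run of letters and says nothing of binding in these cells.

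Other genes of the pathway were taken from lists chosen by role, again with earlier results of these data known. None of the 9 interferon genes on the list had a row. Of 82 listed pathway genes, 63 were tested, 0 passed the adjusted threshold in limma, and 5 had an unadjusted p under 0.05, all lower in shHMGB1. They are 7.94% of the genes tested on these lists, where 7.91% of all tested genes had such a p in either direction and 4.13% were lower. All 5 belong to the list of further factors and effectors, where 24 of 34 tested genes were lower and the median was -0.15. Sensing adaptors and kinases had a median of 0.09 over 14 genes, and negative regulators had -0.01 over 15.

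Gbp2, an interferon-inducible GTPase, stood first of the 5. It measured 35.0, 37.8 and 30.9 RPKM in shCTRL and 21.5, 15.1 and 14.1 RPKM in shHMGB1, with groups far apart. In limma the log2 difference was -1.05 ± 0.20 (SE) and the adjusted p was 0.249. With array quality weights limma's adjusted p was 0.0424, and over all 18 alternatives it ranged from 0.0424 to 0.973. Ifi204 and Ifi205 belong to the mouse PYHIN family of DNA-binding proteins, whose close copies can share reads. Ifi204 measured 31.3, 40.8 and 28.6 RPKM and 22.6, 16.1 and 18.2 RPKM, and Ifi205 had a log2 fold change of -0.72. Ddx60, a helicase gene linked to RIG-I signalling, had 77, 58 and 100 reads in shCTRL and 51, 25 and 32 reads in shHMGB1, at 39.8% of the control mean. It too reached the minimum level only through shCTRL. Ube2l6, given above with Isg15, was the fifth.

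The most abundant genes of each list had an unadjusted p above 0.05 as fitted without covariates. Mavs, the mitochondrial adaptor of RIG-I and MDA5, had 21.3 ± 4.28 RPKM in shCTRL and 26.5 ± 3.38 RPKM in shHMGB1 (SD, n = 3 each), and Tank, a scaffold of the kinase TBK1, had a log2 fold change of -0.33. Mavs, at a log2 fold change of 0.33, had 0.15 without shCTRL replicate B and 0.10 when 18S entered as covariate. Tank had -0.52 without shHMGB1 replicate A, -0.19 without shHMGB1 replicate C and -0.03 with that covariate. Ptpn1 and Ptpn11, phosphatases that act on JAK and STAT signalling, had 0.11 and 0.23. Ifi30, a lysosomal thiol reductase induced by interferon-gamma, measured 54.8, 54.5 and 40.8 RPKM in shCTRL and 79.1, 78.3 and 53.9 RPKM in shHMGB1. Its groups overlapped only through shHMGB1 replicate C, with a log2 fold change of 0.48 ± 0.21 (SE). In 7 of 18 alternatives its unadjusted p was under 0.05, and with the 18S covariate it had 0.78 (limma's unadjusted p = 0.00129, adjusted p = 0.238). Tapbp, which loads peptides onto class I molecules, had -0.15.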

How the data were processed

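RNA-seq libraries of AB22 cells were compared, 3 with the control hairpin and 3 with the hairpin against Hmgb1. Ribosomal RNA had been depleted with RiboMinus before TruSeq libraries were made, per the labels' protocols. The submitters' processing notes name, as tools of the authors, STAR 2.5.3a, Trimmomatic 0.32, edgeR and featureCounts, and as builds mm10 and GRCm38. Strandedness, gene model and gene filter: not given in the sources used here. Deposited by the authors were log2 RPKM values, from -9.20 to 17.74, 1 column per library. They were raised as powers of 2.

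Reads were recovered from the steps between low values, assuming that 0.25 reads, in proportion to library size, had been added. For 12132 of 12134 genes a length existed at which each of the 6 values was whole (tolerance 0.02 reads). Recovery was tested on simulated data.

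The 11669 genes averaging 0.5 RPKM or more were tested on log2(RPKM + 0.1) using limma 3.58.1 (R 4.3.3), eBayes with trend and robust, two-sided, with Benjamini-Hochberg adjustment over all of them at 0.05. Fold changes on this scale understate those of low genes. Members, classes and lists were chosen with earlier results of these data known. Described in full are Hmgb1, members with an unadjusted p under 0.05 or groups that do not overlap, the 3 most abundant of each class, and from the pathway lists those with an unadjusted p under 0.05 and the 2 most abundant. Others are marked as described after their values were seen. The fit was tested on simulated data. Alternatives changed the pseudocount, filter, scaling, eBayes options, sample weights, replicate block, libraries left out, 18S covariate and input values (deposited log2 values, or recovered reads with voom).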

Additional observations from a re-analysis of the deposited data

How the results depend on the processing

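Across the 18 alternatives, 0 members passed the adjusted threshold in any, and the 8 members with an unadjusted p under 0.05 kept their direction in each that tested them. The settings called 3 genes over the whole table as reported, 0 at a mean of at least 5 RPKM, 5 with libraries rescaled to the same sum, 21 with array quality weights, 7 with the replicate block, 5 with the 18S covariate, and 0 to 8 when a library was left out. Whether the replicate letters pair the libraries could not be settled from 3 letters. Correlations of same-lettered deviations were 0.145, -0.104 and 0.476 for A, B and C, and 3 of 6 libraries correlated best with their own letter. With the replicate block 10 members had an unadjusted p under 0.05, where 10.7% of all genes did. That count was 4 after rescaling (6.33% of all genes), 14 with array weights (16.9%) and 3 to 13 without a library (3.65% to 20.9%). At 5 RPKM it was 2 of 25 tested members, Irf1 and Isg15 (6.60% of all genes). The others of the 8 averaged less than 5 RPKM and were not tested there. Members with non-overlapping groups numbered 5 of the 25 tested at 5 RPKM (12.2% of all genes), 5 after rescaling (13.2%) and 12 to 23 without a library (17.1% to 41.9%). Rescaling moved the median of all genes by 0.35, and its fold changes are given with that shift taken off. Its p-values and counts come from the fit without that step. The median over members was 0.04 at 5 RPKM and -0.17 to -0.05 without a library. For receptors and kinases it was 0.03 with the 18S covariate and -0.01 to 0.16 without a library, for transcription factors -0.33 to -0.20 without a library, for sensors -0.11 at 5 RPKM, -0.20 with the covariate and -0.35 to -0.24 without a library, and for effectors 0.07 at 5 RPKM, -0.25 with array weights and -0.40 to 0.01 without a library. Among the 33 genes described in full, 6 changed sign somewhere, with rescaled fold changes read after the shift was taken off. Without that step Irf9 and Eif2ak2, among others, would have changed sign on rescaling. Genes marked as described after their values were seen, and the cell type markers, are not in this count. With the 18S covariate Ifnar1 had -0.11, Jak1 -0.46, Trim25 -0.15, Ifitm3 -0.09, Ptpn1 -0.25 and Ptpn11 -0.11. Ifnar1 had -0.00 after quantile normalization, and without a library Ifnar1 ranged from -0.03 to 0.12, Jak1 from -0.24 to 0.52, Ifitm3 from -0.09 to 0.19 and Ptpn1 from -0.03 to 0.33. Ptpn11, which changed sign only with the 18S covariate, ranged from 0.08 to 0.40 without a library. Of genes that kept their sign in that count, Jak2 ranged from 0.07 to 0.26 and Irf9 from -0.37 to -0.20 without a library. In the same fits Eif2ak2 ranged from -0.20 to -0.03 and Tapbp from -0.21 to -0.06. Gbp2 passed with array quality weights. Hmgb1 passed in 13 of the 18, and its adjusted p was 0.0546 at 5 RPKM and 0.138, 0.247 and 0.116 without shCTRL library A, B and C in turn, and 0.197 without shHMGB1 library B. The cause of these shifts was not tested. The covariate fit, voom and the fit on deposited log2 values were chosen after seeing the data. Depth limits Rtp4, Ifit3, Cmpk2 and Zbp1, which rest on 11 to 121 reads per library. Isg15 had 39 reads in shCTRL replicate B, its lowest library, and 304 in shHMGB1 replicate B, its highest.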
